A study of Mus musculus with 22 samples.

Results

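The response of microglia to lipopolysaccharide (LPS) in mice exposed to Gulf War chemicals was described over all genes of the table. The 3 libraries of exposed mice given LPS (GW-LPS) were set against the 4 libraries of exposed mice given phosphate-buffered saline (GW-PBS). These are 7 of the 22 libraries of the series, and they were taken by their labels alone. Both groups were male C57BL/6J mice with the same exposure, a model of Gulf War Illness, the chronic condition of many veterans of that war. From the age of 10 weeks they had been given pyridostigmine bromide at 0.7 mg/kg, an acetylcholinesterase inhibitor, together with permethrin at 200 mg/kg, a pyrethroid insecticide, on 10 days. They were then left to reach 17.5 months, and both groups also received the injection vehicle of the cannabidiol arm. GW-LPS mice got 1 dose of Escherichia coli LPS (0.33 mg/kg) into the peritoneum, GW-PBS mice the same volume of PBS, and the brains were taken 24 hours later. Control mice with vehicle in place of the chemicals (Ctrl-LPS and Ctrl-PBS, 4 libraries each) and exposed mice given cannabidiol (GW-CBD-LPS, 4 libraries, and GW-CBD-PBS, 3 libraries) were used for comparison. Cannabidiol (CBD), a plant cannabinoid, was given there at 30 mg/kg daily for 28 days and then every 2 days for 2 weeks.

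Microglia are the macrophages that live in the brain tissue, where they survey their surroundings, prune synapses and take up debris. LPS, a component of the outer membrane of Gram-negative bacteria, is recognised by Toll-like receptor 4 with its partners CD14 and MD-2, and the adaptors MyD88 and TRIF pass the signal on to NF-kB and to interferon regulatory factors. LPS in the periphery reaches microglia largely through circulating cytokines and the vessel wall, and activated microglia typically lose part of the receptor set that marks the resting state while they gain genes of the acute response.

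The sequenced cells were live CD45mid, CD11b+ and CD11a- cells sorted from dissociated whole brains, and the data are counts of reads per gene. GW-LPS libraries held 32803017 to 37990923 counts and GW-PBS libraries 33596443 to 37517783 counts. Levels below are CPM, counts scaled to a common library size with TMM factors, and a library is called by the number in its name (GW-LPS replicates 2, 3 and 4, GW-PBS replicates 1 to 4). A gene was called when edgeR's quasi-likelihood test, adjusted over the 16554 genes tested (Benjamini-Hochberg), gave a p under 0.05. Whether a library stands for 1 mouse is not in the labels, and p-values here speak only of the spread among libraries. In RNA from sorted bulk cells, fewer cells of a type and less RNA per cell cannot be told apart.

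Markers of the labelled cell type were high in every library. The 10 microglia markers summed to 37207, 28610 and 34640 CPM in GW-LPS libraries and to 45706 to 47152 CPM in GW-PBS libraries. Markers of other cells were far lower: astrocyte sums were 176 to 305 CPM in GW-LPS and 231 to 274 CPM in GW-PBS, and neuron sums were 1.81 to 3.93 CPM in GW-LPS and 4.14 to 8.19 CPM in GW-PBS. T and NK cell markers summed to 1.69 to 2.01 CPM in GW-LPS and 2.52 to 10.6 CPM in GW-PBS, with Cd8a and Ncr1 at 0 in all 7 libraries. Some other sets were higher than these. Border-associated macrophage markers reached 1184 CPM in GW-LPS replicate 4. In GW-PBS replicate 1, B cell markers reached 1114 CPM, endothelial markers 1477 CPM and erythroid markers 1827 CPM. GW-PBS replicate 1 stood apart in neutrophil markers, which summed to 615 to 822 CPM in GW-LPS libraries, to 2326 CPM in GW-PBS replicate 1 and to 490 to 1095 CPM in the other GW-PBS libraries. GW-LPS replicate 3 was most often the extreme library of its group. Among the 3 GW-LPS libraries it held the highest value in 57.9% of genes called higher and the lowest in 51.5% of genes called lower. Over all genes tested it held the highest value in 43.6% and the lowest in 37.2%. Its own values helped to choose the called genes, so these shares are no measure of its response.

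LPS changed 1577 genes in exposed mice, 9.53% of those tested. Of these 737 were higher in GW-LPS (4.45%) and 840 lower (5.07%), and 236 of the rises and 457 of the falls were over 2-fold. Genes called higher included Cd244a, Fcgr4, Socs3 and Bcl3, and genes called lower included receptors of resting microglia (P2ry12, Gpr34, Siglech), genes of the disease-associated state (Cd9, Trem2, Clec7a) and MHC class II genes. A core of 490 genes, 221 higher and 269 lower, kept its call and direction whichever of the 7 libraries was left out, and 489 of them were also called by DESeq2 and by limma voom. The total count was 889 with GW-LPS replicate 3 left out, 733 with GW-LPS replicate 4 left out and 956 with GW-PBS replicate 1 left out. It was 1120 without GW-PBS replicate 1 and the 2 control libraries with raised neutrophil markers, and 607 when only these 7 libraries were fitted. DESeq2 called 2337 genes and limma voom 3809. The median log2 fold change of all genes tested was -0.04. All calls and fold changes below come from the edgeR fit, a log2 fold change is GW-LPS minus GW-PBS and is followed by its standard error, also where a gene rose or fell by a value, means are given with the SD over the 3 GW-LPS and the 4 GW-PBS libraries, and a call described without a left-out library was kept in each of the 7 fits that left out 1 library. A gene is written as uncalled without a library where its test no longer passed once that library was left out.

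**Figure D1:**
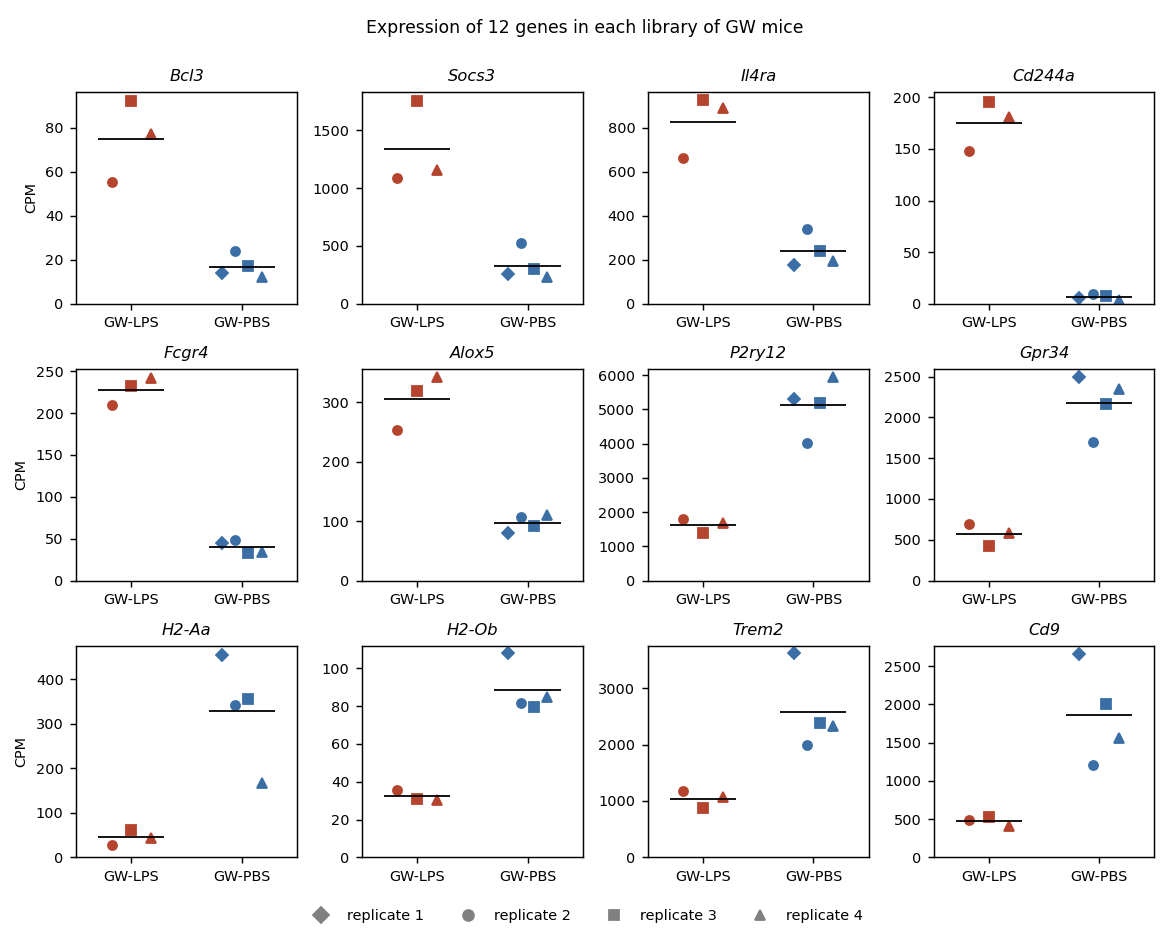
Expression (CPM, linear axes) of 12 genes in each GW-LPS and GW-PBS library. Symbols are single libraries, with the shape giving the replicate number, and lines are group means. In all 12 genes the GW-LPS and GW-PBS libraries occupy separate ranges. All 12 were picked from the called genes, so their separation is no separate result.

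Cd244a had the smallest adjusted p of all genes (SLAM family receptor of natural killer and myeloid cells, ENSMUSG00000004709, GRCm38 chr1:171559193-171609746, plus strand). In GW-LPS libraries Cd244a was at 148, 196 and 181 CPM, and in GW-PBS libraries at 5.76, 9.36, 7.89 and 3.86 CPM. The groups were far apart, and the lowest GW-LPS library stood well above the highest GW-PBS library. The log2 fold change of Cd244a was 4.70 ± 0.42 (SE, edgeR adjusted p = 5.74e-06). Its family member Slamf8, a surface receptor of macrophages, went the other way. Levels of Slamf8 were 25.6, 19.6 and 21.1 CPM in GW-LPS and 68.5, 64.5, 84.4 and 48.7 CPM in GW-PBS. All 3 GW-LPS libraries were below all 4 GW-PBS libraries, with a log2 fold change of -1.59 ± 0.20 (edgeR adjusted p = 8.18e-05). Of 48 inhibitory and costimulatory receptors tested 6 rose and 10 fell. Among the falls were Cd200r1, the receptor through which neuronal CD200 restrains microglia (-0.92 ± 0.15, edgeR adjusted p = 0.000503), and Pdcd1, which encodes the checkpoint receptor PD-1 (-1.32 ± 0.29, edgeR adjusted p = 0.00764). Pdcd1 had 35.4, 13.3 and 20.7 CPM in GW-LPS, against 71.8, 59.0, 69.2 and 31.1 CPM in GW-PBS. In Pdcd1 the highest GW-LPS library lay above the lowest GW-PBS library, so its groups overlap. Slamf7 (-2.68 ± 0.47), Cd300a (-0.72 ± 0.15) and Lag3 (-0.72 ± 0.16), inhibitory or adhesion receptors of immune cells, fell too, and Treml2, a myeloid receptor gene, rose by 1.5 ± 0.26. With any 1 of the 7 libraries left out the inhibitory receptor list gave 12 to 20 called genes.

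Genes of LPS sensing moved in both directions, with 5 higher and 3 lower of 29 tested. The signalling adaptor gene Myd88 rose. In GW-LPS libraries Myd88 was at 188, 211 and 223 CPM, and in GW-PBS libraries at 131, 117, 129 and 135 CPM. No GW-LPS library overlapped GW-PBS, and the log2 fold change was 0.70 ± 0.09 (edgeR adjusted p = 0.000107). The kinase genes Irak1 (0.71 ± 0.15) and Irak4 (0.50 ± 0.12, uncalled without GW-LPS replicate 4 or GW-PBS replicate 1), which act directly downstream of MyD88, rose as well. The falls were in cofactors of the receptors. Ly96, which encodes the MD-2 chain that binds LPS, fell by 1.12 ± 0.27, Cd180, a homologue of Toll-like receptor 4 known to restrain it, fell by 1.38 ± 0.24, and Unc93b1, the chaperone of endosomal Toll-like receptors, fell by 0.41 ± 0.09. The receptor gene Tlr4 itself was at 106 ± 4.79 CPM in GW-LPS and 85.6 ± 11.0 CPM in GW-PBS, and its log2 difference of 0.31 ± 0.19 did not pass (edgeR adjusted p = 0.345). Cd14 was at 1055 ± 419 CPM in GW-LPS and 968 ± 188 CPM in GW-PBS (0.12 ± 0.27, edgeR adjusted p = 0.828). In the LPS sensing list the number called was 5 with GW-PBS replicate 1 left out.

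In the NF-kB and TNF list 3 of 27 genes rose and 4 fell. Bcl3, a nuclear IkB family protein that works with the p50 and p52 subunits (ENSMUSG00000053175, GRCm38 chr7:19808462-19822770, minus strand), led the rises. Levels of Bcl3 were 55.1, 92.2 and 77.2 CPM in GW-LPS and 14.0, 24.0, 17.0 and 11.9 CPM in GW-PBS. The lowest GW-LPS library was above the highest GW-PBS library, and the log2 fold change was 2.16 ± 0.27 (edgeR adjusted p = 8.18e-05). Nfkb1, which encodes the p50 subunit and its precursor, fell. Nfkb1 had 105, 108 and 103 CPM in GW-LPS, against 183, 166, 158 and 161 CPM in GW-PBS. Its 3 GW-LPS libraries lay close together and below all GW-PBS libraries (-0.67 ± 0.12, edgeR adjusted p = 0.00129). The inhibitor gene Nfkbie fell by 0.64 ± 0.13, and the subunit gene Relb had a log2 fold change of -0.97 ± 0.25 (edgeR adjusted p = 0.0186), uncalled without GW-LPS replicate 3 or 4. Tnf and Il1b, the classical early cytokines, did not pass. In GW-LPS libraries Tnf was at 66.2, 96.1 and 80.8 CPM, and in GW-PBS libraries at 62.1, 66.4, 92.9 and 36.5 CPM. The Tnf ranges overlap, with a log2 difference of 0.33 ± 0.42 (edgeR adjusted p = 0.681). Il1b was at 173 ± 39.6 CPM in GW-LPS and 110.3 ± 49.4 CPM in GW-PBS (0.65 ± 0.60, edgeR adjusted p = 0.549), and the NF-kB inhibitor gene Nfkbia was at 619 ± 189.9 CPM in GW-LPS and 483 ± 132 CPM in GW-PBS (0.36 ± 0.33, edgeR adjusted p = 0.55). Calls in the NF-kB list numbered 3 with GW-LPS replicate 3 left out.

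No chemokine gene was called higher with edgeR in the fit of all libraries. Of 21 tested 2 fell, Cxcl14 (-1.33 ± 0.35, uncalled without GW-LPS replicate 3 or 4 or GW-PBS replicate 3) and Cxcl16 (-0.68 ± 0.20, uncalled without any 1 of the 7 libraries but GW-PBS replicate 2 and 4). The chemokine list gave 0 called genes with GW-LPS replicate 3 or 4 or GW-PBS replicate 3 left out, 1 with GW-LPS replicate 2 or GW-PBS replicate 1 left out and 5 with GW-PBS replicate 2 left out. DESeq2 called 0 chemokine genes higher and 4 lower, and limma voom 2 higher and 9 lower. With edgeR 1 was higher in the fit of the 7 libraries alone, and 1 was higher without GW-PBS replicate 1 and the 2 control libraries with raised neutrophil markers. The chemokine list had a median log2 fold change of -0.66. Ccl2, the monocyte chemoattractant gene, was at 40.4 ± 6.42 CPM in GW-LPS and 27.8 ± 5.88 CPM in GW-PBS (0.54 ± 0.57, edgeR adjusted p = 0.609), and the interferon-induced Cxcl10 was at 9.45 ± 4.75 CPM in GW-LPS and 21.9 ± 6.33 CPM in GW-PBS (-1.21 ± 0.56, edgeR adjusted p = 0.185). Of 24 other cytokine and growth factor genes 5 fell and none rose. Il15, a growth factor of natural killer cells, fell by 1.02 ± 0.20, and Igf1, insulin-like growth factor 1, fell by 1.88 ± 0.36. In the other cytokine list the number called was 3 with GW-LPS replicate 4 left out. Levels of Igf1 were 5.06, 4.36 and 4.25 CPM in GW-LPS and 12.5, 11.5, 30.9 and 12.5 CPM in GW-PBS. All GW-LPS libraries of Igf1 were below all GW-PBS libraries, among which replicate 3 was the highest. Il6 had 1.30, 2.30 and 1.33 CPM in GW-LPS against 9.09, 4.87, 5.73 and 8.87 CPM in GW-PBS, groups that do not overlap, yet its log2 difference of -2.12 ± 0.68 did not pass (edgeR adjusted p = 0.0546). The interleukin-1 family list held 2 rises among 20 genes, the interleukin-18 receptor chain gene Il18rap (4.26 ± 0.86) and the decoy receptor gene Il1r2, described with the glucocorticoid genes. Called genes of the interleukin-1 list numbered 1 with GW-LPS replicate 3 left out and 5 with GW-PBS replicate 2 left out.

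The list of cytokine receptors, their kinases, STAT3 and SOCS inhibitors, called the STAT3 list here, had 9 rises and no fall among 29 genes. Not all of its receptors signal mainly through STAT3. With any 1 of the 7 libraries left out the STAT3 list gave 7 to 9 called genes. Its median was 0.26 on the log2 scale, against -0.04 for all genes. Socs3, the feedback inhibitor that STAT3 induces, and Stat3 itself rose together. Socs3 had 1087, 1754 and 1158 CPM in GW-LPS, against 255, 521, 302 and 234 CPM in GW-PBS. GW-LPS replicate 3 was the highest, but the other 2 GW-LPS libraries were also above every GW-PBS library. The log2 fold change of Socs3 was 2.02 ± 0.30 (SE, edgeR adjusted p = 0.000238). In GW-LPS libraries Stat3 was at 380.2, 621 and 409 CPM, and in GW-PBS libraries at 131, 284, 174 and 165 CPM. Again no library of one group reached the other, and the log2 fold change was 1.32 ± 0.23 (edgeR adjusted p = 0.0014). The receptor chain genes Il4ra (interleukins 4 and 13, 1.80 ± 0.22) and Lifr (leukaemia inhibitory factor, 1.5 ± 0.25) were higher. So were Csf2rb (1.06 ± 0.20), the shared beta chain for interleukin 3, interleukin 5 and GM-CSF, and Csf2rb2 (1.03 ± 0.19), a beta chain for interleukin 3. Levels of Il4ra were 661, 925 and 889.7 CPM in GW-LPS and 178, 338, 238 and 196 CPM in GW-PBS. All 3 GW-LPS libraries of Il4ra were above all 4 GW-PBS libraries, with replicate 3 the highest. The kinase gene Jak3 rose (1.09 ± 0.23), as did Jak1 (0.76 ± 0.21, uncalled without any 1 of the 7 libraries but GW-LPS replicate 2 and GW-PBS replicate 2) and the survival kinase gene Pim2 (0.81 ± 0.21, uncalled without GW-LPS replicate 4).

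The promoter window of Socs3 is shown because it holds a match to TTCNNNGAA, the palindromic core that STAT dimers bind. It covers 250 bases before and 50 bases after the annotated start (RefSeq, GRCm38.p6, chr11:117969317-117969616, minus strand), read 5′ to 3′, and the capitals mark the match, which begins 154 bases before the start.
Socs3: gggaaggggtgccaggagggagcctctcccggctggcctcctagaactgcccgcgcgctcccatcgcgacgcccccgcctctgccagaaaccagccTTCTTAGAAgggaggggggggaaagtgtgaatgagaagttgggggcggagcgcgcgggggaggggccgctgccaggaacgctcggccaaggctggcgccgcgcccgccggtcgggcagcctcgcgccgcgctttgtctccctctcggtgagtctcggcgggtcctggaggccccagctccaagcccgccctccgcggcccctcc
Of the 9 called genes of this list 8 had a window in the RefSeq table, and 2 of these held the match, Socs3 and Csf2rb2. Over all 32851 windows of this length 8.3% held it. TTCNNNGAA reads the same on both strands.

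Receptors of antibodies and complement were among the rises with the smallest p. Fcgr4, an activating Fc receptor for IgG (ENSMUSG00000059089, GRCm38 chr1:171018920-171029761, plus strand), is the first example. Fcgr4 had 209.6, 232 and 242 CPM in GW-LPS, against 44.6, 48.4, 33.4 and 34.6 CPM in GW-PBS. Both ranges were narrow and far apart, and the log2 fold change was 2.50 ± 0.29 (edgeR adjusted p = 5.59e-05). The inhibitory Fc receptor gene Fcgr2b rose less (0.67 ± 0.13). In GW-LPS libraries Fcgr2b was at 718, 922 and 831 CPM, and in GW-PBS libraries at 605, 461, 471 and 536 CPM. In the Fc receptor list 3 of 16 genes rose and 1 fell. The activating Fcgr3 rose by 0.63 ± 0.19 with overlapping groups, uncalled without any 1 of the 7 libraries but GW-LPS replicate 2 and GW-PBS replicate 1. The fall was in Fcer2a, the low-affinity IgE receptor, which had no counts in the 3 GW-LPS libraries and 0.18 to 0.755 CPM in GW-PBS (edgeR adjusted p = 0.0326), uncalled without GW-LPS replicate 2, 3 or 4 or GW-PBS replicate 3. In the complement list 5 of 20 genes rose. C5ar1, the receptor of the anaphylatoxin C5a, had a log2 fold change of 1.98 ± 0.23 (edgeR adjusted p = 5.59e-05). Levels of C5ar1 were 1067, 2431 and 1309 CPM in GW-LPS and 422, 384, 396 and 421 CPM in GW-PBS. GW-LPS replicate 3 was the highest, and the other GW-LPS libraries were also above all GW-PBS libraries. C4b, the classical pathway component, was at 458 ± 48.8 CPM in GW-LPS and 90.5 ± 68.3 CPM in GW-PBS (2.34 ± 0.48). The subunit genes C1qa (-0.09 ± 0.19) and C1qb (-0.06 ± 0.18) of the initiating complex did not pass (edgeR adjusted p = 0.813 and 0.881). In the complement list the number called was 2 with GW-LPS replicate 3 or 4 or GW-PBS replicate 1 left out. Calls in the Fc receptor list numbered 2 with GW-LPS replicate 4 or GW-PBS replicate 3 left out.

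Among scavenger receptors 4 of 27 rose and 3 fell. Msr1, the class A receptor for modified lipoproteins and bacteria, was the largest rise. Msr1 had 84.6, 219.8 and 112 CPM in GW-LPS, against 12.8, 19.9, 22.3 and 13.3 CPM in GW-PBS. Its lowest GW-LPS library was well above the highest GW-PBS library (3.02 ± 0.40, edgeR adjusted p = 9.58e-05). Cd163, the haemoglobin scavenger receptor, rose by 1.68 ± 0.34 and the lipoprotein receptor gene Scarb1 by 0.64 ± 0.12, while the fatty acid receptor gene Cd36 fell by 1.80 ± 0.42, uncalled without GW-LPS replicate 2. The scavenger receptor list gave 4 called genes with GW-LPS replicate 2 or 4 left out. Of the lipid mediator genes, Alox5, which makes leukotrienes, rose (1.65 ± 0.19, edgeR adjusted p = 5.32e-05). In GW-LPS libraries Alox5 was at 253, 319 and 343 CPM, and in GW-PBS libraries at 79.7, 106, 92.2 and 109.6 CPM. The groups were again apart. Hpgd, which degrades prostaglandins, fell by 1.14 ± 0.21. In the prostaglandin and leukotriene list 2 of 24 genes rose and 4 fell. In the prostaglandin list the number called was 2 with GW-LPS replicate 4 left out and 3 with GW-PBS replicate 4 left out.

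Other rises with the smallest p in exposed mice were in Rab32, a small GTPase of lysosome-related organelles (0.97 ± 0.10), Htra3, a serine protease gene (1.30 ± 0.14), Gpr35, a receptor for kynurenic acid and other ligands (1.65 ± 0.19), and Arid5a, an RNA-binding protein that stabilises Il6 transcripts (1.93 ± 0.23). Levels of Rab32 were 243, 294 and 275 CPM in GW-LPS and 151, 126, 135 and 142 CPM in GW-PBS. No GW-LPS library of Rab32 came near the GW-PBS range. Adamtsl4, a secreted matrix protein gene, had a log2 fold change of 5.60 ± 0.56 (edgeR adjusted p = 2.26e-05). Adamtsl4 had 23.3, 142 and 48.7 CPM in GW-LPS, against 1.23, 1.64, 1.23 and 1.76 CPM in GW-PBS. Its GW-LPS libraries were spread widely, with replicate 3 the highest, and all of them were far above the GW-PBS libraries. Further large rises were in Plet1 (5.18 ± 0.96), Map3k6, a stress-activated kinase gene (4.51 ± 0.74), Igfbp6, an insulin-like growth factor binding protein gene (4.46 ± 0.73), Tgm1, a transglutaminase gene (3.13 ± 0.40), P2ry2, a receptor for ATP and UTP (2.82 ± 0.50), and Sema6b (2.80 ± 0.43). In GW-LPS libraries Saa3 was at 55.4, 28.4 and 28.8 CPM, and in GW-PBS libraries at 2.19, 12.2, 1.82 and 0.0280 CPM. Saa3, an acute phase serum amyloid gene, had higher GW-LPS than GW-PBS libraries throughout (3.22 ± 0.95, edgeR adjusted p = 0.0361), uncalled without any 1 of the 7 libraries but GW-PBS replicate 2.

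Falls were also found outside the gene lists. Levels of Pla2g2d were 0.485, 0.402 and 0.607 CPM in GW-LPS and 6.21, 11.0, 12.7 and 12.04 CPM in GW-PBS. Pla2g2d, a secreted phospholipase A2 of antigen-presenting cells, was low in all GW-LPS libraries and higher in all GW-PBS libraries (-4.39 ± 0.55, edgeR adjusted p = 8.43e-05). Duoxa1, a maturation factor of the DUOX oxidases (-4.58 ± 0.73), Tnfrsf17, the receptor BCMA of plasma cells (-3.59 ± 0.64), Slc36a2, an amino acid transporter gene (-3.33 ± 0.65), Lox, a collagen crosslinking enzyme gene (-3.07 ± 0.55), Slc39a4, a zinc importer gene (-3.05 ± 0.46), and Ramp1, a subunit of the CGRP receptor (-2.93 ± 0.40), were among the 15 lowest fold changes. Angptl7 had 4.73, 8.58 and 6.94 CPM in GW-LPS, against 30.3, 41.0, 39.4 and 44.0 CPM in GW-PBS. Angptl7, an angiopoietin-like protein gene, had no overlap between groups (-2.52 ± 0.30, edgeR adjusted p = 5.78e-05). Smaller falls with little spread were those of Cyb561a3, a lysosomal ferric reductase (-1.38 ± 0.16), Chst8, a sulfotransferase (-1.44 ± 0.16), Spns3, a transporter gene (-1.40 ± 0.17), Serpine2, a protease inhibitor (-1.41 ± 0.18), and Afmid, an enzyme of tryptophan breakdown (-1.73 ± 0.22).

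The shares called per list are read against 9.53% over all genes. They were 53.6% in the disease-associated list, 45.0% in class II, 42.9% in the homeostatic list, 4 of 10 in the MS4A family, 37.5% in the glucocorticoid list (6 called, 3 with GW-LPS replicate 3 left out) and 33.3% among inhibitory and costimulatory receptors. Shares near or under that of all genes were found for interferon genes (12%), the BCL2 family (11.8%), immediate early genes (10.7%), the interleukin-1 family (10.0%), chemokines (9.52%), S phase genes (9.09%), the TGF-beta pathway (8.0%), oxidative stress defence (7.41%), cholesterol synthesis (3.85%) and mitosis (3.57%), so their counts are not results about those lists. A share above 9.53% describes a list and is not a test of it.

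**Figure D2:**
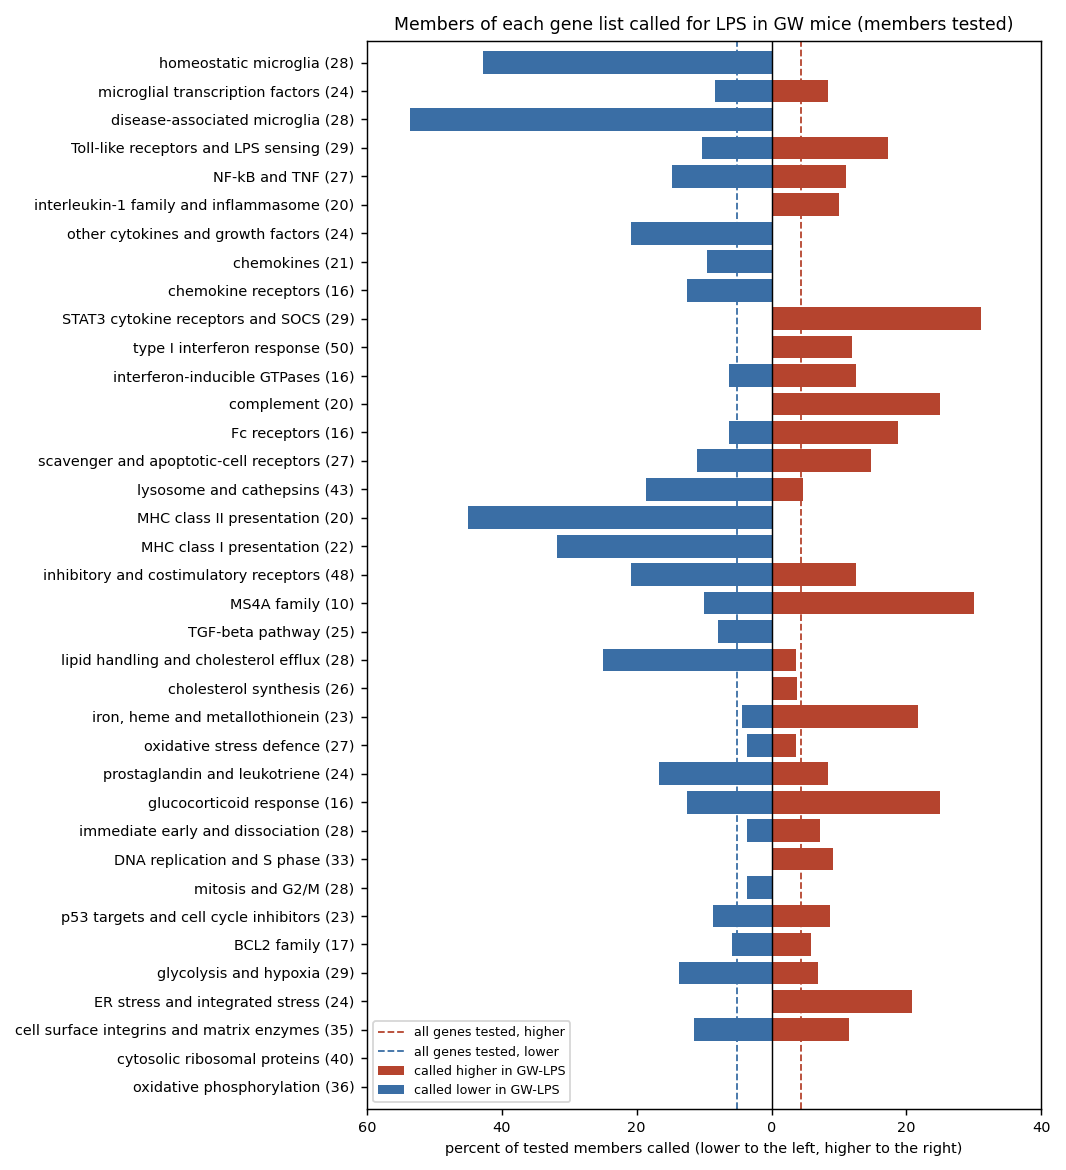
Share of the tested members of each of 37 gene lists called higher (right) or lower (left) in GW-LPS than in GW-PBS, in percent, with the number of members tested in brackets. Dashed lines are the shares over all 16554 genes, 4.45% higher and 5.07% lower. The disease-associated, class II and homeostatic lists reach farthest to the left and the STAT3 and MS4A lists farthest to the right.

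MHC class II genes, which present extracellular antigens, fell together. Of 20 genes on the list 9 fell and none rose, and the median was -0.56 on the log2 scale. With any 1 of the 7 libraries left out the class II list gave 8 to 10 called genes. In GW-LPS libraries H2-Aa was at 28.6, 62.4 and 44.0 CPM, and in GW-PBS libraries at 454, 342, 354 and 166 CPM. In H2-Aa, an alpha chain gene, GW-PBS replicate 4 was the lowest of its group, still above every GW-LPS library (-2.87 ± 0.47, edgeR adjusted p = 0.000644). Levels of H2-Ab1 were 67.5, 134 and 98.4 CPM in GW-LPS and 838, 722, 672 and 323 CPM in GW-PBS. The beta chain gene H2-Ab1 showed the same order of groups (-2.68 ± 0.44, edgeR adjusted p = 0.000646). H2-Eb1 had 21.8, 64.8 and 36.6 CPM in GW-LPS, against 383, 283, 263 and 144 CPM in GW-PBS. H2-Eb1, a second beta chain gene, had a log2 fold change of -2.71 ± 0.49 (edgeR adjusted p = 0.00171). The invariant chain gene Cd74 fell by 2.15 ± 0.40, the master regulator gene Ciita fell by 2.26 ± 0.44 and the costimulatory ligand gene Cd80 fell by 0.84 ± 0.14. In GW-LPS libraries Ciita was at 1.02, 0.947 and 0.665 CPM, and in GW-PBS libraries at 3.87, 6.58, 4.73 and 1.71 CPM. Ciita was a low transcript, and its groups did not overlap. H2-Oa (-1.17 ± 0.26) and H2-Ob (-1.46 ± 0.22), the chains of a modulator of peptide loading, fell too. H2-DMa (-0.55 ± 0.21) and H2-DMb1 (-0.26 ± 0.17), the chains of the loading factor itself, did not pass (edgeR adjusted p = 0.104 and 0.377), nor did Cd86 (-0.14 ± 0.13, edgeR adjusted p = 0.542).

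The promoter windows of H2-Aa, H2-Eb1 and H2-Ob are shown because these genes fell and their windows hold both motifs marked below. The 3 genes are known targets of 1 module. This module is formed by the X and Y boxes, over which the RFX complex, NF-Y and the coactivator CIITA assemble. Other called genes of the list, among them Cd80, Ciita and Rfxank, are not meant by this. Each window holds 300 bases (RefSeq, GRCm38.p6, read 5′ to 3′). They lie at chr17:34287774-34288073 (H2-Aa, minus strand), chr17:34305617-34305916 (H2-Eb1, plus strand) and chr17:34238655-34238954 (H2-Ob, plus strand). Capitals mark CTNGCAAC, letters within the X box, and CCAAT, the Y box core, which was searched on both strands and reads ATTGG on the other one.
H2-Aa: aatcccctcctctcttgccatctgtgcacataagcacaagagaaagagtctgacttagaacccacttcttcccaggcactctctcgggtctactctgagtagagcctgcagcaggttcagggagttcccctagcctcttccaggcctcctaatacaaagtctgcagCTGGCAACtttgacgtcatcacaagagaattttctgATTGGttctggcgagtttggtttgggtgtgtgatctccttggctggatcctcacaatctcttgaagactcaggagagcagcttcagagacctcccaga
H2-Eb1: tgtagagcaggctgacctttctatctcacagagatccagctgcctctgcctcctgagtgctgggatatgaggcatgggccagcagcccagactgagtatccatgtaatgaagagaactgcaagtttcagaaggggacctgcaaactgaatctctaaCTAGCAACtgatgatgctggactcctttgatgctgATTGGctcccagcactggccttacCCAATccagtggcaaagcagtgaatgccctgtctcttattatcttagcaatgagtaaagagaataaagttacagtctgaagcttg
H2-Ob: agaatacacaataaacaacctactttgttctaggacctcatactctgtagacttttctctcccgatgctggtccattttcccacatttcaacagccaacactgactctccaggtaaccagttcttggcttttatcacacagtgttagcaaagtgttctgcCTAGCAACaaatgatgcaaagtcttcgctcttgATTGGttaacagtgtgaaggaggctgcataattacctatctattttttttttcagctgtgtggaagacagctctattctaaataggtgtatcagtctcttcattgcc
CTNGCAAC begins 84, 94 and 90 bases before the start in H2-Aa, H2-Eb1 and H2-Ob, and CCAAT on the other strand follows at 48, 59 and 57 bases, with a further CCAAT at 35 bases in H2-Eb1. The 2 motifs do not overlap. Of the 9 called class II genes 6 had a window in the table, of which 5 held CCAAT and 3 held CTNGCAAC. The 3 with CTNGCAAC are the windows shown. H2-Oa, a class II chain gene that also fell, held CCAAT but not CTNGCAAC. Over all windows 37.4% held CCAAT, 3.42% held CTNGCAAC on either strand and 1.32% held both. The letters of CTNGCAAC were chosen after these windows had been read.

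Class I genes present peptides from inside the cell. In the fit of all libraries 7 of 22 fell and none rose, with a median of -0.36. With GW-LPS replicate 3 left out 3 fell and 2 rose, Calr and Pdia3, chaperones of peptide loading that did not pass with all libraries (0.66 ± 0.28 and 0.44 ± 0.22, edgeR adjusted p = 0.147 and 0.221). With GW-PBS replicate 2 left out 8 fell and 1 rose. H2-K1, a classical heavy chain gene, had a log2 fold change of -1.0 ± 0.23 (edgeR adjusted p = 0.00867). Levels of H2-K1 were 607, 416 and 522 CPM in GW-LPS and 1160, 906, 1331 and 725 CPM in GW-PBS. All 3 GW-LPS libraries were below all GW-PBS libraries. Psmb9, an immunoproteasome subunit gene, fell by 0.88 ± 0.19 and H2-M3, which presents formylated peptides, fell by 0.78 ± 0.18. B2m, the shared light chain, was at 1992 ± 97.9 CPM in GW-LPS and 3568 ± 1443 CPM in GW-PBS and did not pass (-0.84 ± 0.28, edgeR adjusted p = 0.0634). Reads of the near-identical class I genes may be split between copies, which makes their single values uncertain. The class I list gave 4 called genes with GW-LPS replicate 4 or GW-PBS replicate 3 left out.

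Genes of resting microglia fell in 12 of 28 cases and rose in none, with a list median of -0.46. P2ry12 had 1787, 1397 and 1681 CPM in GW-LPS, against 5303, 4009, 5195 and 5956 CPM in GW-PBS. P2ry12, the ADP receptor that guides processes to injury, was far lower in every GW-LPS library than in any GW-PBS library (-1.66 ± 0.21, edgeR adjusted p = 9.39e-05). In GW-LPS libraries Gpr34 was at 692, 423 and 580.3 CPM, and in GW-PBS libraries at 2493, 1702, 2164 and 2352 CPM. Gpr34, a receptor for lysophosphatidylserine, had its lowest value in GW-LPS replicate 3 (-1.95 ± 0.24, edgeR adjusted p = 7.85e-05). Levels of Siglech were 1212, 920.1 and 1196 CPM in GW-LPS and 2753, 1997, 2273 and 2368 CPM in GW-PBS. Siglech, a sialic acid binding lectin, followed the same order (-1.08 ± 0.16, edgeR adjusted p = 0.00025). Sparc, a matricellular protein gene (-0.87 ± 0.16), Lpcat2, a lysophospholipid acyltransferase gene (-0.75 ± 0.15), and Selplg, a ligand of selectins (-0.55 ± 0.13), fell in every fit that left out 1 library. Tmem119, a membrane protein gene of resting microglia, had -0.39 ± 0.12, uncalled without any 1 of the 7 libraries but GW-LPS replicate 2 and GW-PBS replicate 3. The fractalkine receptor gene Cx3cr1 was at 2817 ± 475 CPM in GW-LPS and 3809 ± 16.8 CPM in GW-PBS, groups that do not overlap, but did not pass (-0.43 ± 0.15, edgeR adjusted p = 0.0783). Csf1r, the receptor on which microglia depend to survive, was at 10282 ± 527 CPM in GW-LPS and 9593 ± 2635 CPM in GW-PBS (0.10 ± 0.19, edgeR adjusted p = 0.797). With any 1 of the 7 libraries left out the homeostatic list gave 8 to 12 called genes.

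Lineage transcription factors did not move as 1 group, with 2 of 24 higher and 2 lower. Runx1 rose (0.64 ± 0.16, uncalled without GW-LPS replicate 3) and so did Cebpb, a regulator of the acute phase (1.12 ± 0.28, uncalled without GW-LPS replicate 3 or GW-PBS replicate 3). Mef2c (-0.47 ± 0.14, uncalled without any 1 of the 7 libraries but GW-PBS replicate 2) and Maf (-0.67 ± 0.21, uncalled without any 1 of the 7 libraries but GW-PBS replicate 2) fell. Sall1, which defines the microglial lineage, was at 237 ± 32.6 CPM in GW-LPS and 333 ± 66.8 CPM in GW-PBS (-0.49 ± 0.22, edgeR adjusted p = 0.183). Calls in the transcription factor list numbered 0 with GW-LPS replicate 3 left out, 1 with GW-PBS replicate 3 left out and 2 with GW-LPS replicate 4 or GW-PBS replicate 4 left out.

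The disease-associated microglia list, genes that rise around amyloid plaques and in ageing white matter, had the largest share of falls of the 37 lists, 15 of 28 with none higher and a median of -1.11. With GW-PBS replicate 1 or 2 left out 1 gene was called higher. The disease-associated list gave 9 called genes with GW-LPS replicate 4 left out. Cd9 had 484, 531 and 403 CPM in GW-LPS, against 2655, 1213, 2008 and 1555 CPM in GW-PBS. In the tetraspanin gene Cd9 the GW-LPS libraries were all well below the lowest GW-PBS library (-1.97 ± 0.27, edgeR adjusted p = 0.000107). In GW-LPS libraries Trem2 was at 1172, 868 and 1067 CPM, and in GW-PBS libraries at 3622, 1992, 2377 and 2339 CPM. Trem2, the lipid-sensing receptor through which this state is induced, had a log2 fold change of -1.32 ± 0.21 (edgeR adjusted p = 0.000426). Levels of Clec7a were 54.9, 56.8 and 39.6 CPM in GW-LPS and 178, 142, 338 and 128 CPM in GW-PBS. Clec7a, which encodes the glucan receptor Dectin-1, had a log2 fold change of -1.96 ± 0.29 (edgeR adjusted p = 0.000258), and its highest value was in GW-PBS replicate 3. That library was also the highest GW-PBS library for Lpl, lipoprotein lipase (-2.31 ± 0.38), for the integrin gene Itgax (-2.04 ± 0.34) and for the metalloelastase gene Mmp12 (-4.26 ± 0.55). Mmp12 had 3.27, 3.79 and 2.29 CPM in GW-LPS, against 31.1, 31.9, 146 and 30.2 CPM in GW-PBS. Without GW-PBS replicate 3 all 4 of these genes were still called. Cadm1, an adhesion molecule gene, fell by 1.06 ± 0.13 with little spread in either group, and Ank, a pyrophosphate transporter gene, fell by 1.37 ± 0.24. Apoe, the lipid carrier gene, was at 7411 ± 1673 CPM in GW-LPS and 12058 ± 4716 CPM in GW-PBS (-0.70 ± 0.28, edgeR adjusted p = 0.128), and the osteopontin gene Spp1 was at 722 ± 222 CPM in GW-LPS and 999.6 ± 694 CPM in GW-PBS (-0.47 ± 0.45, edgeR adjusted p = 0.57).

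Lysosomal and lipid genes fell more often than they rose. In the lysosome list 8 of 43 fell and 2 rose. In the lysosome list the number called was 4 with GW-LPS replicate 2 or 4 left out and 6 with GW-PBS replicate 3 left out. The protease gene Ctsd had a log2 fold change of -0.57 ± 0.13 (edgeR adjusted p = 0.00739), the lysosomal hydrolase gene Hexa a log2 fold change of -0.89 ± 0.17 (edgeR adjusted p = 0.00294), and Ctsc, the protease that activates granule proteases, rose (0.74 ± 0.14, edgeR adjusted p = 0.00275). Cst3, the abundant cystatin C gene, also fell. In GW-LPS libraries Cst3 was at 20578, 17843 and 19969 CPM, and in GW-PBS libraries at 74857, 29633, 34554 and 39481 CPM. GW-PBS replicate 1 was well above every other library, and the call (-1.20 ± 0.27, edgeR adjusted p = 0.00891) was kept without it. Among 28 genes of lipid handling 7 fell and 1 rose. Called genes of the lipid list numbered 4 with GW-LPS replicate 3 or 4 left out. Mgll, which hydrolyses the endocannabinoid 2-arachidonoylglycerol, fell by 1.25 ± 0.24, the phospholipid transfer gene Pltp fell by 1.43 ± 0.29, and Ch25h, which makes an oxysterol, fell by 1.92 ± 0.49, uncalled without GW-LPS replicate 3 or 4. Of 26 cholesterol synthesis genes only Mvd was called (0.68 ± 0.18, uncalled without GW-LPS replicate 2 or 4).

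In the iron list 5 of 23 genes rose and 1 fell. Slc39a14, a transporter that takes up zinc and non-transferrin iron, rose in every GW-LPS library. Levels of Slc39a14 were 75.03, 68.8 and 98.8 CPM in GW-LPS and 9.63, 26.2, 19.0 and 18.5 CPM in GW-PBS. The lowest GW-LPS library was well above the highest GW-PBS library (2.14 ± 0.30, edgeR adjusted p = 0.000136). The related transporter gene Slc39a8 rose by 0.97 ± 0.20, and the iron exporter gene Slc40a1 fell by 0.97 ± 0.21, uncalled without GW-LPS replicate 4. Hmox1, which degrades heme, was at 109 ± 4.22 CPM in GW-LPS and 71.2 ± 11.0 CPM in GW-PBS (0.61 ± 0.20, edgeR adjusted p = 0.0532), and the ferritin gene Fth1 at 4618 ± 182 CPM in GW-LPS and 4181 ± 1319 CPM in GW-PBS (0.14 ± 0.26, edgeR adjusted p = 0.784). The iron list gave 3 called genes with GW-LPS replicate 4 left out.

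Interferon response genes were called in 6 of 50 cases, close to the share over all genes, with a list median of 0.13. All 6 were higher in the fit of all libraries, and 1 gene was called lower with GW-LPS replicate 2 or GW-PBS replicate 2 left out. Ifi207 (1.68 ± 0.32) and Ifi204 (1.05 ± 0.23), members of the family of cytosolic DNA sensors, and Slfn2, a regulator of immune cell quiescence (1.28 ± 0.25), were the 3 that kept their call in each fit that left out 1 library. Slfn2 had 228, 231 and 214 CPM in GW-LPS, against 99.0, 90.8, 104 and 76.9 CPM in GW-PBS. All GW-LPS libraries of Slfn2 were above the highest GW-PBS library. Stat2 (0.95 ± 0.28, uncalled without any 1 of the 7 libraries but GW-PBS replicate 2), Irf9 (0.43 ± 0.12, uncalled without GW-LPS replicate 2, 3 or 4 or GW-PBS replicate 1) and the nucleic acid sensor gene Zbp1 (1.34 ± 0.38, uncalled without GW-LPS replicate 2 or 4 or GW-PBS replicate 1 or 4) rose. Canonical members did not pass. In GW-LPS libraries Ifit3 was at 39.7, 19.98 and 23.5 CPM, and in GW-PBS libraries at 31.4, 53.7, 43.9 and 36.2 CPM. The Ifit3 ranges overlap, with a log2 difference of -0.57 ± 0.33 (edgeR adjusted p = 0.291). Isg15 was at 8.87 ± 3.13 CPM in GW-LPS and 10.5 ± 2.24 CPM in GW-PBS (-0.24 ± 0.38, edgeR adjusted p = 0.752), and Irf7 at 41.6 ± 11.3 CPM in GW-LPS and 31.4 ± 10.2 CPM in GW-PBS (0.41 ± 0.36, edgeR adjusted p = 0.531). Of 16 interferon-inducible GTPases, which act on pathogen vacuoles, 2 rose and 1 fell. Gbp7 rose (1.54 ± 0.22, edgeR adjusted p = 0.000222), as did Gbp3 (0.80 ± 0.22, uncalled without GW-LPS replicate 2 or 4 or GW-PBS replicate 1), and Tgtp2 fell (-1.24 ± 0.32, uncalled without GW-LPS replicate 3 or 4 or GW-PBS replicate 3). In the interferon list the number called was 3 with GW-LPS replicate 4 or GW-PBS replicate 1 left out. Calls in the GTPase list numbered 1 with GW-LPS replicate 4 left out.

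Glucocorticoid response genes showed a wide spread between GW-LPS libraries. In that list 4 of 16 genes rose and 2 fell, with a median of 1.06. The glucocorticoid list gave 3 called genes with GW-LPS replicate 3 left out. Levels of Fkbp5 were 168, 786 and 291 CPM in GW-LPS and 44.6, 106, 75.4 and 147 CPM in GW-PBS. Fkbp5, a chaperone of the glucocorticoid receptor, was highest in GW-LPS replicate 3, but all GW-LPS libraries were above all GW-PBS libraries and the call was kept (2.15 ± 0.42, edgeR adjusted p = 0.00275). Klf9 had 1.76, 95.0 and 6.19 CPM in GW-LPS, against 2.79, 5.49, 4.98 and 4.00 CPM in GW-PBS. Klf9 was far up in GW-LPS replicate 3 alone, the other 2 GW-LPS libraries lay near the level of GW-PBS, and its call (2.99 ± 0.83, edgeR adjusted p = 0.0266) was lost without GW-LPS replicate 3 or GW-PBS replicate 1, 3 or 4. In GW-LPS libraries Il1r2 was at 3.37, 287 and 13.05 CPM, and in GW-PBS libraries at 1.83, 2.14, 0.699 and 1.09 CPM. The rise of the decoy receptor gene Il1r2 (6.13 ± 1.45, edgeR adjusted p = 0.011) was likewise lost without that library. Dusp1, a phosphatase of MAP kinases, had 1.35 ± 0.37, uncalled without GW-LPS replicate 3 or GW-PBS replicate 3 or 4, and Tsc22d3, which encodes GILZ, was at 589 ± 297 CPM in GW-LPS and 245 ± 119.8 CPM in GW-PBS and did not pass (1.27 ± 0.41, edgeR adjusted p = 0.0574). Sgk1 fell by 0.91 ± 0.18 and the cell cycle inhibitor gene Cdkn1c fell by 1.62 ± 0.26.

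GW-LPS replicate 3 also lay apart in genes outside that list, which were chosen after their values were seen. Levels of Cd300lf were 35.0, 479.5 and 67.3 CPM in GW-LPS and 10.3, 9.54, 10.5 and 9.13 CPM in GW-PBS. Cd300lf, an inhibitory myeloid receptor gene, was called (4.29 ± 0.84, edgeR adjusted p = 0.00289), but not without GW-LPS replicate 3. Olfml3 had 3615, 471 and 2835 CPM in GW-LPS, against 3835, 3009, 3050 and 3108 CPM in GW-PBS. Olfml3, a secreted microglial glycoprotein gene, was low in that library alone and was not called (-0.49 ± 0.37, edgeR adjusted p = 0.451). In GW-LPS libraries Fcrls was at 2404, 928 and 2473 CPM, and in GW-PBS libraries at 2577, 2494, 2588 and 2615 CPM. Fcrls, a marker of microglia, was likewise far lower in that library, while the other 2 GW-LPS libraries lay just below the GW-PBS range (-0.41 ± 0.21, edgeR adjusted p = 0.245). Levels of Slc2a5 were 866, 269.9 and 791 CPM in GW-LPS and 1428, 1248, 1246 and 1373 CPM in GW-PBS. The fructose transporter gene Slc2a5 fell (-1.04 ± 0.30, edgeR adjusted p = 0.0306), uncalled without GW-LPS replicate 3 or 4 or GW-PBS replicate 1 or 4. In the same library Mcm2, a subunit of the replicative helicase, was the lowest of the 3. Mcm2 had 119, 17.8 and 68.4 CPM in GW-LPS, against 8.88, 32.3, 21.8 and 11.5 CPM in GW-PBS. Mcm2 was called higher with overlapping groups (1.88 ± 0.58, edgeR adjusted p = 0.0438), uncalled without any 1 of the 7 libraries but GW-LPS replicate 3 and GW-PBS replicate 2. The S phase list had 3 rises among 33 genes. In the S phase list the number called was 0 with GW-LPS replicate 2 or 4 or GW-PBS replicate 3 or 4 left out and 1 with GW-PBS replicate 1 left out. In the mitosis list 1 of 28 genes was called, and none without GW-LPS replicate 3, GW-LPS replicate 4 or GW-PBS replicate 4. The marker sums of GW-LPS replicate 3 were 28610 CPM for microglia, 196 CPM for B cells (698 and 513 CPM in the other GW-LPS libraries, 868 to 1114 CPM in GW-PBS) and 202 CPM for choroid plexus and ependymal cells (19.98 and 52.1 CPM in the other GW-LPS libraries). The last sum reached 485 CPM in GW-PBS replicate 4 and was 26.5 to 105 CPM in the other GW-PBS libraries, so GW-LPS replicate 3 lay inside the range of GW-PBS. Their part in these values was not tested.

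**Figure D3:**
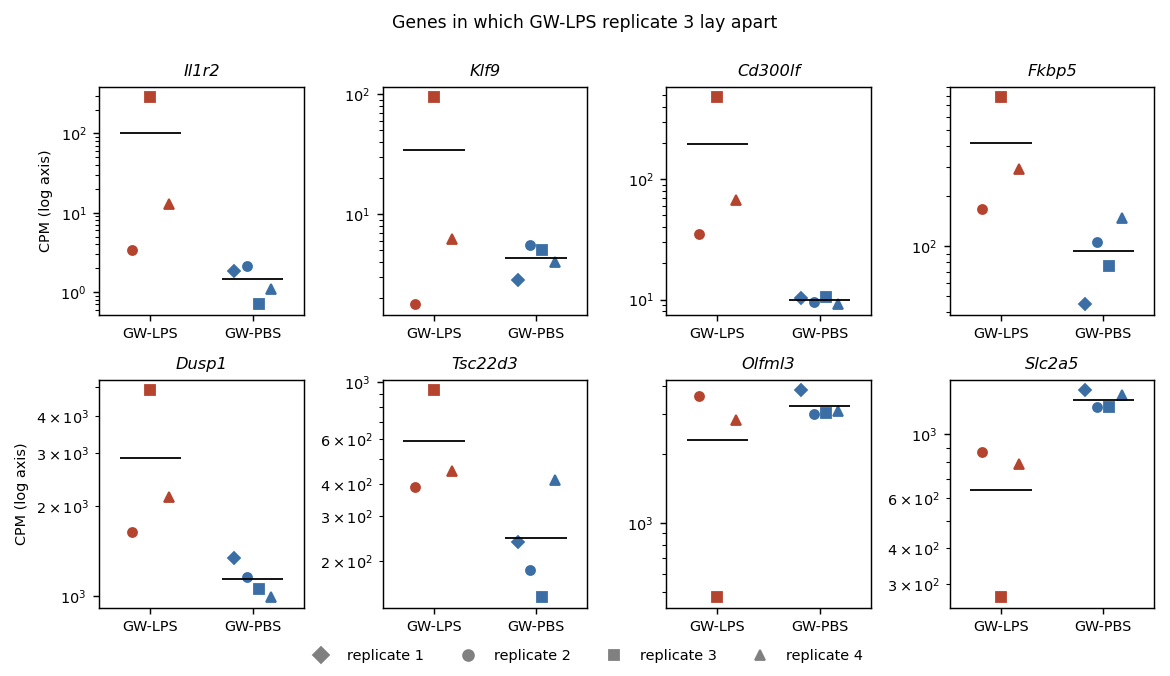
Expression (CPM, logarithmic axes) of 8 genes in each GW-LPS and GW-PBS library, chosen after their values were seen. Symbols are single libraries, with the shape giving the replicate number, and lines are group means. The square of GW-LPS replicate 3 is the highest of the 7 libraries in Il1r2 (287 CPM), Klf9 (95.0 CPM) and Cd300lf (479.5 CPM), and the lowest in Olfml3 (471 CPM) and Slc2a5 (269.9 CPM).

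In the list of endoplasmic reticulum and integrated stress 5 of 24 genes rose, with a median of 0.57. Called genes of the stress list numbered 0 with GW-LPS replicate 4 left out, 1 with GW-PBS replicate 1 or 4 left out, 2 with GW-LPS replicate 2 left out and 8 with GW-LPS replicate 3 left out. In GW-LPS libraries Hspa5 was at 2344, 1156 and 2354 CPM, and in GW-PBS libraries at 793, 1052, 1118 and 1147 CPM. Hspa5, the main chaperone of that compartment, was well above GW-PBS in GW-LPS replicates 2 and 4. Replicate 3, at 1156 CPM, lay only just above the highest GW-PBS library, at 1147 CPM. Hspa5 was called (0.93 ± 0.27, edgeR adjusted p = 0.0328), uncalled without any 1 of the 7 libraries but GW-LPS replicate 3 and GW-PBS replicate 2. Of 40 cytosolic ribosomal protein genes and 36 oxidative phosphorylation genes none was called in edgeR, with list medians of -0.06 and -0.16. Of the ribosomal genes 0 had an unadjusted p under 0.05, DESeq2 called 0 and limma voom 4. Of the oxidative phosphorylation genes 2 had an unadjusted p under 0.05, DESeq2 called 1 and limma voom 4. In the remaining lists 2 of 29 glycolysis and hypoxia genes rose and 4 fell, 4 of 35 integrin and matrix enzyme genes rose and 4 fell, 2 of 28 immediate early genes rose and 1 fell, 2 of 23 p53 targets rose and 2 fell, and 2 of 16 chemokine receptors fell. The glycolysis list gave 1 called gene with GW-LPS replicate 3 left out, 2 with GW-LPS replicate 2 or 4 left out and 3 with GW-PBS replicate 3 left out. In the integrin list the number called was 5 with GW-LPS replicate 4 left out. Calls in the immediate early list numbered 1 with GW-LPS replicate 3 or GW-PBS replicate 1 or 3 left out. The p53 list gave 1 called gene with GW-LPS replicate 4 left out and 2 with GW-LPS replicate 2 or 3 or GW-PBS replicate 1 or 4 left out. In the chemokine receptor list the number called was 0 with GW-LPS replicate 3 left out and 1 with GW-LPS replicate 2 or 4 left out. Bnip3, a hypoxia-induced mitophagy receptor, fell by 0.80 ± 0.17, Eng, a TGF-beta coreceptor, fell by 0.84 ± 0.15, Adam9, a membrane protease, rose by 1.15 ± 0.22, and Gadd45g, a stress sensor, rose by 1.03 ± 0.19. Mcl1, a survival factor, rose by 1.00 ± 0.18, and Bbc3, which promotes apoptosis, fell by 0.80 ± 0.20, uncalled without GW-LPS replicate 2 or 4. In the MS4A family of membrane proteins 3 of 10 rose and 1 fell. Levels of Ms4a6c were 75.2, 102 and 106 CPM in GW-LPS and 37.7, 23.5, 28.2 and 26.4 CPM in GW-PBS. Ms4a6c was clearly separated between groups (1.71 ± 0.30, edgeR adjusted p = 0.00119), and the fall of Ms4a7 (-1.44 ± 0.36) was lost without GW-LPS replicate 2 or 3. Called genes of the MS4A list numbered 2 with GW-LPS replicate 3 left out.

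Several marker sets of other cells moved as well. Border-associated macrophage markers summed to 897, 1145 and 1184 CPM in GW-LPS and to 508, 790.2, 540.1 and 617 CPM in GW-PBS, and 5 of 10 rose, F13a1 (1.66 ± 0.33), Cd163, Lyve1 (1.42 ± 0.34, uncalled without GW-LPS replicate 3 or 4), Stab1 (0.68 ± 0.20, uncalled without any 1 of the 7 libraries but GW-PBS replicate 2) and Siglec1 (1.03 ± 0.31, uncalled without any 1 of the 7 libraries but GW-LPS replicate 3 and GW-PBS replicate 2). Mrc1 (0.46 ± 0.31) and Pf4 (-0.86 ± 0.37), defining markers of these cells, did not pass (edgeR adjusted p = 0.393 and 0.155). The border macrophage list gave 2 called genes with GW-LPS replicate 4 left out and 3 with GW-LPS replicate 2 or 3 or GW-PBS replicate 1, 3 or 4 left out. B cell markers summed to 698, 196 and 513 CPM in GW-LPS and to 868 to 1114 CPM in GW-PBS, mostly Ighm, the IgM heavy chain, which fell by 1.09 ± 0.31, uncalled without GW-LPS replicate 3 or 4 or GW-PBS replicate 1 or 3. Cd79b, a signalling chain of the B cell receptor, fell by 0.99 ± 0.21. Erythroid markers were lower after LPS, at 131, 184 and 192 CPM in GW-LPS against 1827, 348, 1468 and 331 CPM in GW-PBS, and 5 of 8 fell. GW-PBS replicates 1 and 3 were far above GW-PBS replicates 2 and 4, which lay closer to GW-LPS. Hbb-bt had 1.48, 2.90 and 3.79 CPM in GW-LPS, against 82.0, 10.5, 56.4 and 12.3 CPM in GW-PBS. Hbb-bt, a beta globin gene, fell by 3.89 ± 0.83, and its groups did not overlap. In the erythroid list the number called was 1 with GW-LPS replicate 2 left out, 2 with GW-LPS replicate 3 left out and 3 with GW-PBS replicate 3 left out. Endothelial markers summed to 658 to 961 CPM in GW-LPS and 938 to 1477 CPM in GW-PBS, with 3 of 8 lower. Calls in the endothelial list numbered 0 with GW-LPS replicate 4 left out and 1 with GW-LPS replicate 3 left out. None of the 16 neutrophil markers tested was called with edgeR, with or without GW-PBS replicate 1, nor with DESeq2 or limma voom, and 2 had an unadjusted p under 0.05. The part of these cells in the results above was not tested.

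Control mice of the same age gave 1785 rises and 1593 falls with LPS among the 16554 genes tested. The 2 responses share no library, and control mice had 4 LPS libraries against 3 in exposed mice. Of the 737 rises in exposed mice 527 were also rises in control mice, 71.5% of the first list and 29.5% of the second. Of the 840 falls 535 were shared, 63.7% and 33.6%. Genes called in control mice gave a view of each exposed library that does not use its own calls. Over the 1785 rises the median log2 difference from the mean of the other GW-PBS libraries was 0.33, 0.34 and 0.36 in GW-LPS replicates 2, 3 and 4, and between -0.08 and 0.17 in the GW-PBS libraries. Over the 1593 falls it was -0.55, -0.60 and -0.64 in the GW-LPS libraries and between -0.03 and 0.07 in the GW-PBS libraries. The 3 GW-LPS medians were close to each other on both sets, and the quartiles of replicate 3 were the widest. For genes over 2-fold in control mice the medians were 0.63, 0.93 and 0.75 for 550 rises and -0.96, -1.14 and -1.06 for 894 falls.

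**Figure D4:**
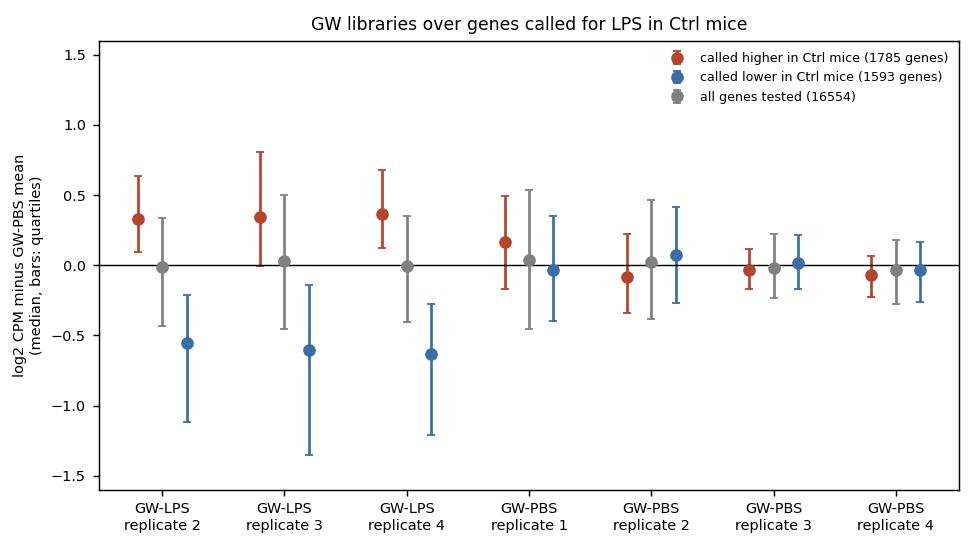
Difference of each GW library from the GW-PBS mean (log2 CPM) over genes called higher or lower by LPS in control mice and over all genes tested. Points are medians over genes and bars run from the lower to the upper quartile. The GW-LPS libraries lie at 0.33 to 0.36 and -0.55 to -0.64, and the GW-PBS libraries between -0.08 and 0.17.

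Whether LPS acted differently in exposed and control mice was tested as the difference of both responses (GW minus Ctrl). No gene passed in edgeR (0.0% of 16554), and the smallest adjusted p was 0.211. At an unadjusted p under 0.05 there were 2099 genes, and leaving out single libraries moved this number to between 1219 (GW-PBS replicate 1) and 3446 (GW-PBS replicate 2), with 1383 for Ctrl-LPS replicate 1. It was 854 when the 3 neutrophil-marked libraries were left out together. DESeq2 called 60 and limma voom 111, and edgeR called 13 without Ctrl-LPS replicate 3. The lists are given side by side as values. The 5 lists described were picked with earlier results of these data known, and some others went the other way. In the mitosis list the difference was below 0 in 2 of 28 genes (median 0.908), and in the S phase list in 8 of 33 (median 0.305). Over all 16554 genes tested 1577 were called in exposed mice, 737 higher and 840 lower. In control mice 3378 were called, 1785 higher and 1593 lower. Counts of calls in lists are to be read against these totals, which rest on 3 and 4 LPS libraries. Of the interferon genes 6 rose in exposed and 37 in control mice, with medians of 0.13 and 1.05, and the difference was below 0 in 49 of 50 genes, against 49.5% of all genes. Rtp4, an interferon-induced chaperone gene, had 0.09 ± 0.30 in exposed and 2.03 ± 0.28 in control mice, a difference of -1.93 ± 0.41. The class I list had 7 falls and no rise in exposed mice, and 8 rises and no fall in control mice, with medians of -0.36 and 0.48, and the difference was below 0 in 19 of 22 genes. These counts rest on single libraries, since exposed mice had 3 falls and 2 rises without GW-LPS replicate 3 and control mice had 2 rises without Ctrl-LPS replicate 1. H2-K1 had -1.0 ± 0.23 and 0.43 ± 0.21, a difference of -1.43 ± 0.31. The disease-associated list had no rise in exposed and 5 in control mice, with medians of -1.11 and -0.26, and the difference was below 0 in 27 of 28 genes. Apoe had -0.70 ± 0.28 in exposed and 1.08 ± 0.26 in control mice. For ribosomal protein genes 0 and 32 of 40 rose, with medians of -0.06 and 0.88, and the difference was below 0 in all 40. The rises in control mice numbered 9 without Ctrl-LPS replicate 1 and 14 without Ctrl-PBS replicate 1. The median in exposed mice was 0.26 without GW-PBS replicate 1, in which ribosomal protein genes summed to 8506 CPM, against 4491 to 6074 CPM in GW-LPS and 3921 to 4921 CPM in the other GW-PBS libraries. In the homeostatic list the medians were close, -0.46 in exposed and -0.44 in control mice, and P2ry12 had -1.66 ± 0.21 and -2.12 ± 0.20, a difference of 0.46 ± 0.28. Without the 3 neutrophil-marked libraries the median difference went from -1.01 to -0.816 for interferon, from -0.905 to -0.578 for class I and from -0.934 to -0.471 for ribosomal genes. For the disease-associated list it went from -0.84 to -0.902. Without GW-PBS replicate 3 that list had 23 of 28 genes below 0, with a median difference of -0.524. Among the genes with the smallest p for the difference were Cxcl13, a B cell chemokine gene (-4.98 ± 1.00), Ly6i (-3.72 ± 0.71), Ms4a6c (-1.94 ± 0.41) and Saa3 (-7.96 ± 1.67), each at an adjusted p of 0.211 in edgeR. None of these single differences was called, and genes of a list are not independent of each other, so the values describe these libraries only.

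**Figure D5:**
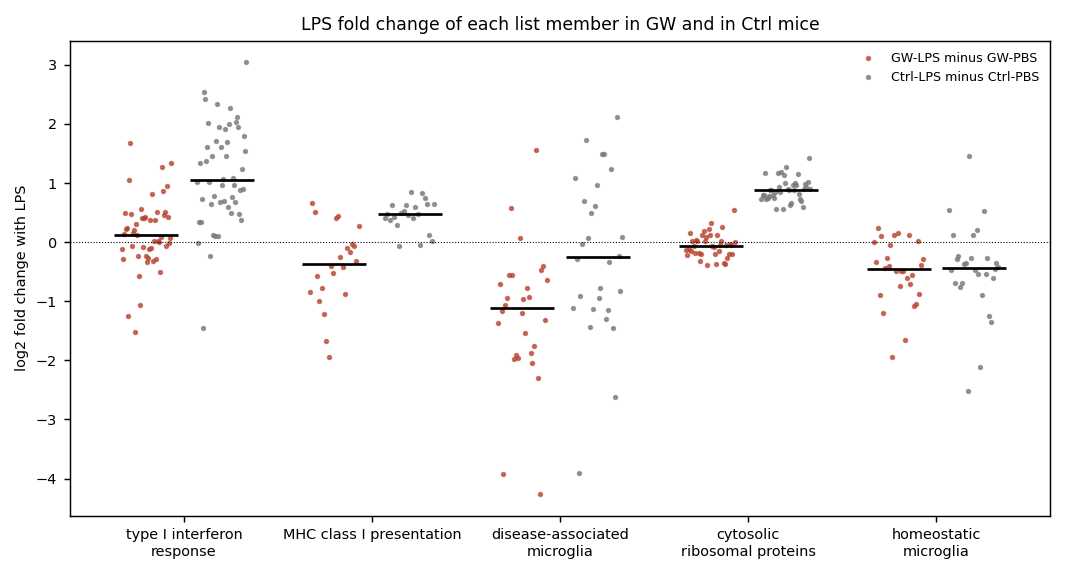
Log2 fold change with LPS of each tested member of 5 gene lists, in exposed mice (GW-LPS minus GW-PBS, left of each pair) and in control mice (Ctrl-LPS minus Ctrl-PBS, right of each pair). Points are genes and lines are list medians. The 5 lists were picked with earlier results of these data known. The medians are 0.13 and 1.05 for interferon genes, -0.06 and 0.88 for ribosomal protein genes, and -0.46 and -0.44 for homeostatic genes.

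In exposed mice given CBD, LPS gave 65 rises and 4 falls, but no call was left when a single GW-CBD-PBS library was taken out or with the replicate block, and the total was 260 without GW-CBD-LPS replicate 3. DESeq2 called 296 rises and 55 falls, and limma voom 2071 and 1708. The shared counts that follow are those of edgeR. In that fit 18 rises (27.7% of them and 2.44% of the 737 in mice without CBD) and 4 falls (100% and 0.476% of the 840) were called in both. The difference of the responses, GW-CBD minus GW, was called for 3 genes in edgeR (0.0181% of those tested), each at an adjusted p of 0.0386. Adamtsl4 had 2.87, 6.50, 1.75 and 3.52 CPM in GW-CBD-LPS and 1.98, 1.95 and 1.76 CPM in GW-CBD-PBS, against 23.3, 142 and 48.7 CPM in GW-LPS and 1.23, 1.64, 1.23 and 1.76 CPM in GW-PBS, a difference of -4.65 ± 0.74 on the log2 scale. Slamf8 had 51.4, 35.7, 56.9 and 43.4 CPM in GW-CBD-LPS and 47.2, 50.5 and 40.4 CPM in GW-CBD-PBS, against 25.6, 19.6 and 21.1 CPM in GW-LPS and 68.5, 64.5, 84.4 and 48.7 CPM in GW-PBS, a difference of 1.61 ± 0.27 on the log2 scale. Arl5c had 21.4, 17.8, 20.97 and 19.2 CPM in GW-CBD-LPS and 18.7, 17.4 and 16.3 CPM in GW-CBD-PBS, against 9.89, 5.63 and 6.71 CPM in GW-LPS and 34.6, 25.7, 22.3 and 19.1 CPM in GW-PBS, a difference of 1.96 ± 0.32 on the log2 scale. In all 3 genes the GW-CBD-LPS libraries overlapped the GW-CBD-PBS libraries, while no GW-LPS library overlapped GW-PBS. The same libraries chose these genes by the test of this difference, so the pattern adds no further support. Adamtsl4 is the matrix protein gene named above, Slamf8 the macrophage receptor gene, and Arl5c encodes a small GTPase-like protein. Over fits that left out 1 of the 14 libraries of these groups the number was 0 in 10 fits, 3 without GW-PBS replicate 4, 19 without GW-PBS replicate 2, 211 without GW-CBD-LPS replicate 2 and 92 without GW-LPS replicate 2. DESeq2 called 380 and limma voom 2287, so the count depends on the tool.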

How the data were processed

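Per the labels, RNA of sorted microglia (integrity number 8.5 or more) was made into stranded poly(A) libraries and read as paired 150 bp reads. The authors deposited 1 table of raw read counts per gene for all 22 libraries, aligned to GRCm38/mm10 per the labels, and for the aligner, the counter and the strand setting nothing is stated in the sources used here. Libraries were assigned by the library names in the labels, whose numbers differ from those in the titles. The table holds 54532 genes, of which 54495 IDs matched GENCODE M21, the source of gene positions. Here 27 date-like symbols were replaced by gene symbols looked up by ID, and 203 genes that shared a symbol with another gene were kept apart by ID.

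One edgeR quasi-likelihood fit (edgeR 4.0.16, R 4.3.3, TMM, filterByExpr, a mean for each of 6 groups, 16554 genes, common biological coefficient of variation 0.352) gave all tests, two-sided, and all 22 libraries share its estimate of the spread. DESeq2 1.42.0, limma 3.58.1 (voom with quality weights), RLE size factors, no filter, a replicate block, the 7 libraries alone, each library left out and the 3 libraries with raised neutrophil markers left out were the alternatives. The scripts were tested on simulated data. Replicates differed by more than counting noise (chi-square per degree of freedom 17.3 to 234). Genes named are the 15 highest and 15 lowest fold changes and the 10 smallest p in each direction among called protein-coding genes (mean of 5 CPM or more in 1 of the 2 groups), members of the gene lists, the 6 smallest p of each difference and those said to be chosen afterwards. The members, gene lists and rules were chosen with earlier results of these data known, and nothing here is independent of those results.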

Additional observations from a re-analysis of the deposited data

Results flagged for a closer look

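Among the sums of marker genes in the 4 GW-PBS libraries, that of T and NK cell markers had 1 library far from the others, replicate 2 at 10.6 CPM. Of the genes given library by library, Igf1 (30.9 CPM) and Mmp12 (146 CPM) had GW-PBS replicate 3 and Olfml3 (3835 CPM) had GW-PBS replicate 1 far above the other 3 libraries of that group. Chance alone puts about 1 in 20 groups past this limit, and 12 marker sums and 48 genes were tested. Leaving out GW-PBS replicate 3 kept the calls of Igf1 and Mmp12, and Olfml3 was not called in any of the fits that left out 1 library.

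The response to LPS differed between exposed mice with and without CBD in 3 genes by the test of the difference itself (GW-CBD minus GW, edgeR adjusted p = 0.0386 each), but in 0 genes with the replicate block and, with single libraries of these groups left out, in 0 genes in 10 of 14 fits. The difference was -4.65 for Adamtsl4, 1.61 for Slamf8 and 1.96 for Arl5c on the log2 scale.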

How the results depend on the processing

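With LPS in exposed mice, 1577 genes were called in the fit reported, 1574 with RLE size factors, 1174 without a filter on low counts, 2337 with DESeq2, 3809 with limma voom, 1282 with the replicate block, 1120 when 3 libraries with raised neutrophil markers were left out together and 607 in a fit of the 7 libraries alone, which has fewer libraries to estimate the spread. Leaving out 1 of the 7 libraries gave 733 to 2286 genes. The difference GW minus Ctrl gave 0 genes in the fit reported, 0 with the replicate block, 60 with DESeq2 (12 higher and 48 lower) and 111 with limma voom (24 and 87), and 0 to 13 when 1 library was left out, 13 being without Ctrl-LPS replicate 3. The difference GW-CBD minus GW gave 3 genes, 0 with the replicate block, 19 without the filter, 380 with DESeq2, 2287 with limma voom, 5 with those 3 libraries left out, and 0 to 211 when 1 library was left out. The cause of these shifts was not tested. For equal library numbers of GW-LPS and GW-PBS the correlation of deviations from the group means was -0.0384, 0.0548 and 0.123 (numbers 2, 3 and 4). For unequal numbers it ran from -0.123 to 0.121. These few values cannot decide whether equal numbers pair the libraries, so the replicate block serves only as an alternative. Of 179 named genes 169 kept their direction and their side of the threshold with the replicate block, 172 with DESeq2 and 159 with limma voom, and 140 of 178 did so in the fit of the 7 libraries alone. Among these genes the direction turned only in 8 with small or widely spread differences. It did so with limma voom in C1qa (0.093), C1qb (0.12), Cd14 (-0.13) and Rtp4 (-0.0919). With GW-PBS replicate 1, Ctrl-LPS replicate 1 and Ctrl-PBS replicate 3 left out it did so in C1qa (0.0939), C1qb (0.0987), Csf1r (-0.0454) and Cxcl13 (-0.049). With single libraries left out the log2 difference ranged over -0.20 to 0.0936 in C1qa, -0.15 to 0.0983 in C1qb, -0.25 to 0.28 in Cd14, -0.0457 to 0.29 in Csf1r, -0.34 to 1.32 in Cxcl13, -0.13 to 3.52 in Klf9, -0.23 to 0.25 in Rtp4 and -0.72 to 0.13 in Spp1. Totals of 32803017 to 37990923 counts per library overlap between both groups, and genes near 1 CPM rest on the fewest counts.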
